A study of Homo sapiens with 39 samples.

Results

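The comparison covers the earliest treated time point in NCI-H209 (H209), a human small cell lung carcinoma line of neuroendocrine type. Its members are the 6 H209 arrays whose titles give 4 h, out of 39 arrays in the series. Of these, 3 came from cells given 100 nM DKFZ-608 in 6.9 µM cyclodextrin for 4 h and 3 from cells given cyclodextrin alone for 4 h. DKFZ-608 is a code-named compound that the labels call a non-covalent inhibitor of TRXR1, the protein of TXNRD1. For reference, 3 H209 vehicle arrays at 0 h and 6 arrays of NCI-H838 (H838), a lung adenocarcinoma line, were used; the H838 arrays are 3 with the same dose of DKFZ-608 and 3 with vehicle, all at 4 h. Every group thus received cyclodextrin. A single line stands for each tumour type, a single dose was used, and nothing in the labels ties a replicate to its own culture. The p-values therefore reflect array-to-array spread, which may be technical.

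Thioredoxin reductase 1 is a selenoenzyme that uses NADPH to keep thioredoxin reduced, and thioredoxin in turn supplies electrons to peroxiredoxins and ribonucleotide reductase. Cells that meet electrophiles or oxidants are known to induce antioxidant genes through NRF2, metallothioneins through the zinc-sensing factor MTF1, chaperones through heat shock factors, and an amino acid and protein synthesis programme through ATF4 and CHOP. Small cell carcinoma of this type is defined by neuroendocrine lineage factors and secretory granule genes.

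Neuroendocrine markers bore out the label of the line. All 13 of the tested markers had higher levels in the H209 than in the H838 arrays at 4 h. Among markers of fibroblasts, leukocytes and endothelium, 14 of 17 lay within 0.5 log2 units of the table's median, the level of dim probes. The others were CD14 (mean 7.21 over the 6 H209 arrays), HLA-DRA (7.27) and CD68 (10). The median vehicle level of all genes, 6.81, also lay in that range. Summed over the 13 neuroendocrine markers, log2 levels were 136.3 to 136.5 in treated and 136.6 to 137.4 in vehicle arrays. Array medians of the 6 arrays ran from 92.8 to 93.6 intensity units. The number of arrays limits the precision. In RNA of a whole culture, fewer cells of a kind and less RNA per cell cannot be told apart.

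At 4 h the largest rises in H209 were mostly in a few stress-responsive families, and falls were smaller and fewer. Of 18555 genes tested with limma, 118 rose (0.636%) and 25 fell (0.135%) at a Benjamini-Hochberg adjusted p under 0.05. Among the genes that rose, 9 changed more than 8-fold, 7 between 4- and 8-fold, 24 between 2- and 4-fold, and 78 less than 2-fold. None of the 25 falls reached 2-fold. Many of the genes that rose or fell were in none of the 40 gene lists used below. Those lists were chosen with earlier results of these data known. At an unadjusted p under 0.05, 761 genes were higher and 857 lower. The median log2 difference of all genes was -0.01. In each of the 143 called genes the 3 treated and 3 vehicle arrays did not overlap. Over all genes, every treated array lay above every vehicle array in 6.56% and below in 7.65%.

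Deviations from group means correlated between same-number arrays with r of 0.48, 0.14 and 0.551 for replicates 1, 2 and 3, weakly for replicate 2. The numbers may thus mark pairs, but the labels state no pairing. With that number as a block the fit called 381 genes higher (2.05%) and 320 lower (1.72%), the 143 genes included. Of the 118 rises, 70 passed without any single array, as did 7 of the 25 falls. After subtraction of each array's low-percentile background, 65 genes rose and 3 fell. Without DKFZ-608 replicate 1 the count was 230, without DKFZ-608 replicate 2 it was 80, without vehicle replicate 1 it was 93, and without vehicle replicate 2 it was 84.

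**Figure D1:**
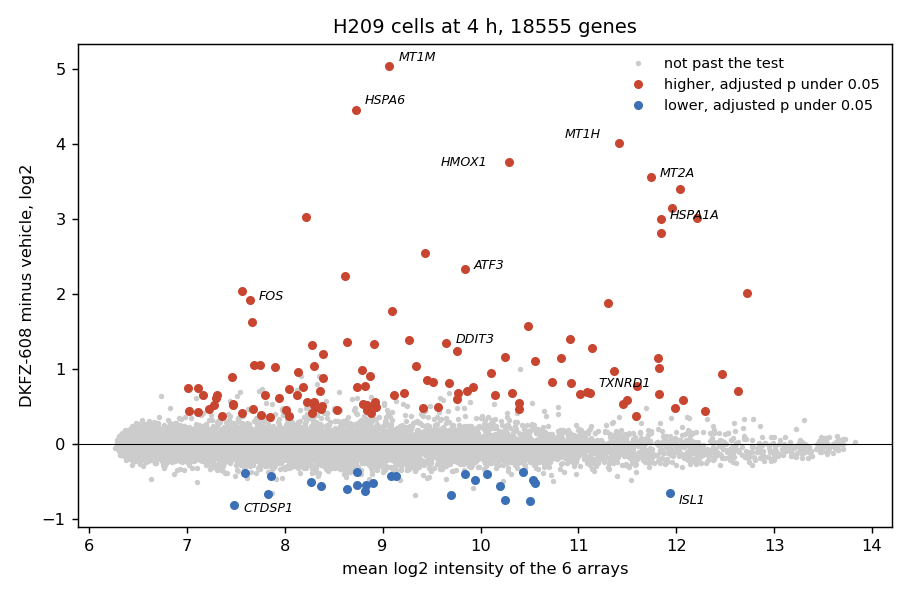
Difference between DKFZ-608 and vehicle arrays of H209 at 4 h (log2, vertical axis) against the mean log2 intensity of the 6 arrays (horizontal axis). Each point is 1 of 18555 genes; 118 genes past the test lie above 0, up to MT1M at 5.03, and 25 below 0, down to CTDSP1 at -0.81.

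Metallothioneins, small cysteine-rich proteins that bind zinc, copper and other metals, gave the largest rises as a family. Of the 10 tested members of the list, 7 rose and none fell, and the median log2 difference was 3.07. MT1L, which is not in that list, differed by 0.63 and was not called. MT1M read 11.46, 11.76 and 11.54 log2 units in DKFZ-608 replicates 1, 2 and 3, and 6.67, 6.41 and 6.58 in vehicle replicates 1, 2 and 3. The vehicle values are those of a dim probe and the treated values are all high, so the 32.8-fold rise (log2 5.03 ± 0.10 SE, limma adjusted p = 8.61e-09) is approximate. MT2A, the most widely expressed human member, read 13.54, 13.58 and 13.43 against 9.86 to 10.16 in vehicle, an 11.8-fold rise (log2 3.55 ± 0.09, limma adjusted p = 4.37e-08). Its 3 treated arrays lay close together and far above all vehicle arrays. MT1H rose 16.1-fold (9.28 to 9.60 in vehicle, 13.30 to 13.50 in treated arrays), MT1X 10.5-fold, MT1E 8.82-fold, MT1G 8.01-fold and MT1F 4.01-fold. MT1B read 6.65 to 6.76 in treated and 6.34 to 6.41 in vehicle arrays (log2 0.32 ± 0.06, limma adjusted p = 0.0701, and 0.00928 with the replicate block). MT3, a member known from brain, and MT4, known from squamous epithelium, were dim and overlapped between groups, with log2 differences of 0.02 and -0.02.

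Treated levels of MT1E, MT1F, MT1G, MT1H, MT1X and MT2A lay between 13.30 and 13.79, near the highest value of the whole table at 14.36. The coding sequences of this family are close to each other, and signal shared between probes cannot be told apart from each gene's own. A further probe of MT1E gave a log2 difference of 2.43 and one of MT1H 3.42. Each of the 7 calls passed without any single array.

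The zinc exporter SLC30A1, a known target of MTF1, was the single called gene among 22 tested zinc transporters and MTF1. It read 9.61, 9.90 and 9.71 in treated and 7.42, 7.50 and 7.57 in vehicle arrays. The groups were well apart, and the rise was 4.73-fold (log2 2.24 ± 0.08, limma adjusted p = 6.73e-07), with 2.01 at a further probe. MTF1 itself differed by -0.00 ± 0.09 (adjusted p = 0.997). The median of the 22 genes was -0.01, like that of all genes, and with the block 1 rose and 1 fell.

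Promoters of 2 responding metallothioneins are shown because the metal response element, the site that MTF1 binds, is known to repeat in them. Sequences are the 250 bases before the transcription start from RefSeq on build GRCh38.p14, with matches to TGCACNC or TGCGCNC on either strand in capitals. The windows are chr16:56608334-56608583 (plus strand) for MT2A and chr16:56682220-56682469 (plus strand) for MT1X.
MT2A: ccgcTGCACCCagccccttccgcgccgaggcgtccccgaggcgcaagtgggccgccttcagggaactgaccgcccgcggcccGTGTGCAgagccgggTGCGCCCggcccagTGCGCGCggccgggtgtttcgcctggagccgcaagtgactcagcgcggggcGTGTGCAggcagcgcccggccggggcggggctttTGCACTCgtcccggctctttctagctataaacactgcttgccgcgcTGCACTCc
MT1X: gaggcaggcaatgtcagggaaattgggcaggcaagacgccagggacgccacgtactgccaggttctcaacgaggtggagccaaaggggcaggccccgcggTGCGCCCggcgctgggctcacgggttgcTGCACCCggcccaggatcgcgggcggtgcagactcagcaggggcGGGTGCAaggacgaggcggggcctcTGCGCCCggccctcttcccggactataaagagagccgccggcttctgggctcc
MT2A held 7 matches, MT1X 4 and MT1H 8, while SLC30A1 held 1. MT1B and MT4, which did not pass the test, held 3 each. At least 3 matches were found in 5 of 98 genes that rose and have a window (GATA2, MT1H, MT1X, MT2A and RGS16, 5.10%), beside 2.04% of 14077 windows of tested genes. At least 1 match stood in 42 of 98 windows of risen genes (42.9%), in 6 of 16 of fallen genes (37.5%) and in 29.9% of all windows.

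Chaperones of the HSP70 and HSP110 families rose next. Of 15 tested genes, 8 rose and none fell, with a median log2 difference of 0.52. HSPA6, a strictly stress-inducible HSP70, read 10.65, 11.17 and 11.03 in treated and 6.42, 6.55 and 6.52 in vehicle arrays. Vehicle arrays sat at the dim level and every treated array far above it, giving a rise of about 21.9-fold (log2 4.45 ± 0.12, limma adjusted p = 4.92e-08). A further HSPA6 probe gave 1.08. HSPA1A, an inducible HSP70, read 13.11, 13.46 and 13.46 against 10.17, 10.50 and 10.37, a 7.98-fold rise (log2 3.00 ± 0.12, limma adjusted p = 7.11e-07). HSPA1B rose by 2.81 ± 0.12, but its transcript is nearly identical to that of HSPA1A and the probes may share signal. The same holds for HSPA7, an HSPA6-related pseudogene (3.03 ± 0.14). HSPH1, an HSP110 that recharges HSP70 with nucleotide, rose 3.66-fold, from 10.26 to 10.43 in vehicle to 12.03 to 12.41 in treated arrays. The constitutive HSPA8 rose by 0.71 ± 0.09 and the mitochondrial HSPA9 by 0.52 ± 0.07. HSPA9 missed the test without DKFZ-608 replicate 2 (adjusted p = 0.0506) or vehicle replicate 2 (0.0538). HSPA5, the endoplasmic reticulum HSP70, differed by 0.06 ± 0.07 (adjusted p = 0.896).

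Co-chaperones that hand clients to HSP70 or release them also rose. Of 31 tested HSP40, BAG and related genes, 7 rose and none fell (median 0.17), and 12 rose with the replicate block. DNAJB1, the main HSP40 of the heat shock response, read 10.70, 10.73 and 10.68 in treated and 8.14, 8.24 and 8.11 in vehicle arrays, 5.82-fold higher (log2 2.54 ± 0.06, limma adjusted p = 4.03e-08). BAG3, which links HSP70 to selective autophagy, read 8.36 to 8.72 against 6.51 to 6.60, a rise of 2.04 ± 0.09. Neither gene's groups overlapped, and BAG3 in vehicle was at the dim level. DNAJA4 rose by 1.36 ± 0.10, CHORDC1 by 1.31 ± 0.11 and DNAJA1 by 1.01 ± 0.08. Among 22 HSP90, chaperonin, small heat shock protein and heat shock factor genes 4 rose, and 8 with the block (median 0.18): HSPB1 (HSP27) by 0.92 ± 0.06, the collagen chaperone SERPINH1 by 0.73 ± 0.09, HSP90AB1 by 0.66 ± 0.10 and CCT5 by 0.36 ± 0.06. The CCT5 call was lost without any one of the 6 arrays (adjusted p up to 0.24), that of SERPINH1 without DKFZ-608 replicate 2 (0.0556), and that of HSP90AB1 without DKFZ-608 replicate 2 (0.111), vehicle replicate 2 (0.146) or vehicle replicate 3 (0.0892). HSF1, chosen for mention after its values were seen, differed by 0.11 ± 0.07 (adjusted p = 0.718).

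Some chaperones read lower in vehicle arrays at 4 h than at 0 h, but none passed the test. From 0 h to 4 h HSPH1 differed by -0.50, HSPA1A by -0.41, HSPA8 by -0.37 and DNAJA1 by -0.36, none past the test. HSPA6 and DNAJB1 each differed by -0.12, HSPA9 by -0.06 and HSPA1L by 0.02. The median of the HSP70 and HSP110 list was -0.10. HSPA8 read 12.58 to 12.72 at 0 h, 12.11 to 12.38 in vehicle and 12.91 to 13.05 in treated arrays at 4 h. Against the 0 h arrays the HSPA8 difference was 0.34 (limma adjusted p = 0.0789) and that of DNAJB6, an HSP40, 0.52 (0.134), neither past the test. CCT5, a chaperonin subunit, gave 0.18 (0.542) against 0 h, with BCL2L1 at -0.38 (0.0714) and NKX2-1 at -0.40 (0.106). In all, 98 of the 118 rises and 16 of the 25 falls also passed against the 0 h arrays. DNAJB6 rose by 0.81 ± 0.11 against the 4 h vehicle arrays, a call lost without DKFZ-608 replicate 2 (adjusted p = 0.0581), vehicle replicate 2 (0.0889) or vehicle replicate 3 (0.0549). Over all genes, 0 of 18555 passed between 0 h and 4 h vehicle (0%, limma), with 517 at an unadjusted p under 0.05. All 118 risen genes were above, and all 25 fallen genes below, each 0 h vehicle array. These genes were picked with the same treated arrays, so this was largely set by the choice. The share over all genes was not counted for 0 h.

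The heat shock element, the binding site of heat shock factors, is built of alternating GAA and TTC units. HSPA6 and HSPA8 are shown as an inducible and a constitutive HSP70 whose windows hold it. Capitals mark GAANNTTCNNGAA or its reverse complement TTCNNGAANNTTC in the 250 bases before the start (RefSeq, GRCh38.p14), at chr1:161524290-161524539 (plus strand) for HSPA6 and chr11:123062137-123062386 (minus strand) for HSPA8.
HSPA6: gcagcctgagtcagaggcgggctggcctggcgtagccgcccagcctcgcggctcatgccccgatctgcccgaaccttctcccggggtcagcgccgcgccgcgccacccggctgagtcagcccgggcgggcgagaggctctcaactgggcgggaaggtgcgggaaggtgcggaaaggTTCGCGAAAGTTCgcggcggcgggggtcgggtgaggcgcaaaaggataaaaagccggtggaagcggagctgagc
HSPA8: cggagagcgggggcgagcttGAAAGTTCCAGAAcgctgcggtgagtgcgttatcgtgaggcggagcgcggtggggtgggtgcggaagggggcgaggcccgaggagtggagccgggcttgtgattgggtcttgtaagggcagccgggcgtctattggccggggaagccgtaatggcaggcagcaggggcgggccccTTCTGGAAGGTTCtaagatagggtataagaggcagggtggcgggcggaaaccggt
HSPA6 held 1 match and HSPA8 2. The element was found in 5 of 98 windows of risen genes, those of CHORDC1, DNAJB6, HSPA6, HSPA8 and SERPINH1 (5.10%), in 0 of 16 windows of fallen genes, and in 47 of 14077 windows in all (0.334%). No match in a window, as in HSPA1A, says only that these letters are not in those 250 bases.

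HMOX1, which degrades haem to iron, biliverdin and carbon monoxide, was the largest riser among antioxidant genes. It read 12.45, 12.18 and 11.88 in treated and 8.55, 8.19 and 8.49 in vehicle arrays. All treated arrays were over 3 log2 units above all vehicle arrays, a 13.5-fold rise (log2 3.76 ± 0.14, limma adjusted p = 6.73e-07). Of the 40 tested genes of the NRF2 list 6 rose, HMOX1 included, and none fell, with a median of 0.17. GCLM and GCLC, the subunits of the rate-limiting enzyme of glutathione synthesis, rose by 1.03 ± 0.08 (limma adjusted p = 0.000198) and 0.94 ± 0.10 (0.00171). With all its probes averaged GCLC gave 0.77 (adjusted p = 0.0642). SQSTM1, an autophagy receptor, rose by 0.58 ± 0.08 and NFE2L2, which encodes NRF2, by 0.65 ± 0.11. The NFE2L2 call was lost without DKFZ-608 replicate 2 (adjusted p = 0.189), DKFZ-608 replicate 3 (0.0708), vehicle replicate 1 (0.0829) or vehicle replicate 3 (0.106). That of SQSTM1 was lost without DKFZ-608 replicate 2 (0.0821), vehicle replicate 1 (0.0578) or vehicle replicate 2 (0.088). With the replicate block 15 of the 40 rose.

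NQO1, a quinone reductase and textbook NRF2 target, read 11.30, 11.62 and 11.67 in treated and 11.26, 11.34 and 11.42 in vehicle arrays. The groups overlapped, with a log2 difference of 0.19 ± 0.10 (adjusted p = 0.672, and 0.182 with the replicate block). SRXN1, which repairs over-oxidised peroxiredoxins, read 7.74, 8.18 and 8.32 against 7.05, 7.61 and 7.93. Its spread followed the replicate number in both groups: the difference of 0.55 ± 0.21 had an adjusted p of 0.479 without and 0.00013 with the replicate block. SLC7A11, the cystine importer, differed by 0.34 ± 0.07 (0.0732, and 0.00665 with the block).

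The transcript of the compound's labelled target rose modestly. TXNRD1 read 11.67, 11.40 and 11.29 in treated and 10.99, 10.66 and 10.68 in vehicle arrays. The lowest treated array was above the highest vehicle array, and the rise was 1.60-fold (log2 0.68 ± 0.12, limma adjusted p = 0.0347, and 4.34e-06 with the block). A further probe gave 0.41, and the mean of the probes 0.54 (adjusted p = 0.0586). The call was lost without DKFZ-608 replicate 2 (adjusted p = 0.178), vehicle replicate 2 (0.222) or vehicle replicate 3 (0.147). TXN, its thioredoxin substrate, was level at 12.76 to 12.98 in treated and 12.73 to 13.02 in vehicle arrays (0.01 ± 0.09), and the mitochondrial TXNRD2 differed by -0.12 ± 0.08. Of 30 tested thioredoxin, peroxiredoxin and related genes only TXNRD1 rose (median 0.00), and 5 rose with the block: TXNRD1, SRXN1, PRDX1, SESN2 and TXNDC9.

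A set of genes known to follow ATF4 and CHOP formed the broadest group. Of 42 tested, 16 rose and none fell, with a median of 0.38. In 26 of them every treated array lay above every vehicle array, beside 6.56% of all genes. With the replicate block 29 rose. ATF3, a stress-induced factor that feeds back on this programme, read 11.03, 11.04 and 10.95 in treated and 8.50, 8.71 and 8.81 in vehicle arrays. Treated arrays stood together, above every vehicle array, and the rise was 5.03-fold (log2 2.33 ± 0.09, limma adjusted p = 6.60e-07). DDIT3, which encodes CHOP, read 10.54, 10.24 and 10.20 against 8.79, 9.01 and 9.12, a 2.55-fold rise (log2 1.35 ± 0.11, limma adjusted p = 0.000247). STC2, a secreted glycoprotein, rose by 1.39 ± 0.08 and DDIT4, an inhibitor of mTORC1 signalling, by 1.27 ± 0.07. TRIB3, a pseudokinase that restrains ATF4, rose by 0.97 ± 0.11.

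Metabolic members of the same set rose as well. SLC38A2, a neutral amino acid transporter, rose by 1.14 ± 0.10, PSAT1 of serine synthesis by 0.82 ± 0.09 and SLC3A2, the heavy chain of the cystine importer, by 0.69 ± 0.11. CHAC1, which degrades glutathione, read 7.77 to 8.06 in treated and 6.95 to 7.07 in vehicle arrays (0.89 ± 0.08). INHBE, an inhibin subunit, rose by 1.24 ± 0.20, and its vehicle arrays spread from 8.69 to 9.60. INHBE missed the test without DKFZ-608 replicate 2 (adjusted p = 0.139), DKFZ-608 replicate 3 (0.0539) or vehicle replicate 2 (0.17), and SLC3A2 without DKFZ-608 replicate 2 (0.139) or vehicle replicate 2 (0.0858). ATF4 itself differed by 0.19 ± 0.10 (adjusted p = 0.645), with -0.06 and 0.59 at further probes. Of 18 tested aminoacyl-tRNA synthetases GARS1 rose by 0.44 ± 0.07 (median of the list 0.07). Of 27 genes of the endoplasmic reticulum unfolded protein response XBP1 rose by 0.58 ± 0.09, while the list median was 0.00. GARS1 missed the test without any of 5 arrays, all but DKFZ-608 replicate 1, and XBP1 without DKFZ-608 replicate 2 or vehicle replicates 1 or 3.

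CHAC1 is shown because its window holds the letters TGATGNAA, a core of the composite element at which ATF4 is known to bind, in capitals on either strand. The window is chr15:40953221-40953470 (plus strand) (RefSeq, GRCh38.p14).
CHAC1: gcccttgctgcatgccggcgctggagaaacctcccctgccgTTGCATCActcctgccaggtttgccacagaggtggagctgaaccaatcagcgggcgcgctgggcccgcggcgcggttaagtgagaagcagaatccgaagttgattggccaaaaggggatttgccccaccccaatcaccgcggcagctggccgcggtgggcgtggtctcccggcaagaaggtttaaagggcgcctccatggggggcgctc
The core was found in 3 of 98 windows of risen genes (ATF3, CHAC1 and HSPA4L, 3.06%) and in 2.10% of all windows.

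Immediate early genes, which are transcribed without new protein synthesis after many stimuli, included 6 risen of 30 tested and none fallen (median 0.17). FOS, a partner in AP-1, read 8.22, 8.80 and 8.77 in treated and 6.74, 6.62 and 6.69 in vehicle arrays. Replicate 1 was the lowest treated array, still far above vehicle, and the rise was 3.76-fold (log2 1.91 ± 0.14, limma adjusted p = 0.000115). EGR1, a zinc finger factor, read 8.18, 8.54 and 8.70 against 6.93, 6.89 and 6.75 (log2 1.62 ± 0.12, limma adjusted p = 0.000136). In vehicle FOS was at the dim level, and after background subtraction the log2 difference was 3.03 for FOS and 2.48 for EGR1, so both folds are approximate. ZFP36, which promotes decay of AU-rich mRNAs, rose by 0.95 ± 0.07, JUN by 0.67 ± 0.07 and IER5 by 0.66 ± 0.08. ATF3, given above, is also in this list.

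Feedback genes of growth factor signalling rose beside them, 6 of 23 tested (median 0.21). DUSP1, a phosphatase of MAP kinases, read 9.80, 10.16 and 9.98 against 8.19 to 8.23, a 3.41-fold rise (log2 1.77 ± 0.09, limma adjusted p = 6.98e-06). RGS16, which shortens G protein signals, rose by 1.05 ± 0.07 and ERRFI1, an inhibitor of the EGF receptor, by 0.88 ± 0.07. SPRY4 rose by 0.75 ± 0.06 at its brightest probe, but 3 further probes gave -0.01, 0.04 and -0.01, and with all its probes averaged the difference was 0.19 (adjusted p = 0.307). Of 12 KLF factors 0 passed (limma), with 4 higher and 1 lower under the replicate block. MXD1, an antagonist of MYC, rose by 0.98 ± 0.07, SMAD7, an inhibitor of TGF-beta signalling, by 0.76 ± 0.08 and BAMBI, a TGF-beta pseudoreceptor, by 0.82 ± 0.10.

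EGR1 is shown because the CArG box, the site of serum response factor, repeats in its window. Capitals mark the boxes at chr5:138465229-138465478 (plus strand) (RefSeq, GRCh38.p14).
EGR1: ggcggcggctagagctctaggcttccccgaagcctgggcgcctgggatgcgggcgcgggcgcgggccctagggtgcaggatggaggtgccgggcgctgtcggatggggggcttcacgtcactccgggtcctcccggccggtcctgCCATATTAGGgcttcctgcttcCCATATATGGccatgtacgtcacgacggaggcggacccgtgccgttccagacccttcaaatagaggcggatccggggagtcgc
EGR1 held 2 boxes. A CArG box was found in 3 of 98 windows of risen genes (EGR1, GARS1 and PRKAB2, 3.06%) and in 1.07% of all windows. The same search found TGACNNNGC or TGAGNNNGC, the core of the antioxidant response element, in 37 of 98 windows (37.8%) beside 25.7% of all and 3 of 16 of fallen genes (18.8%), and TGACGTCA, the cyclic AMP response element, in 4 of 98 (4.08%) beside 2.51% of all and 1 of 16 of fallen genes (6.25%). The CArG box and the ATF4 core were found in 0 of 16 windows of fallen genes. Motifs were searched on both strands, and matches of different motifs may overlap.

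**Figure D2:**
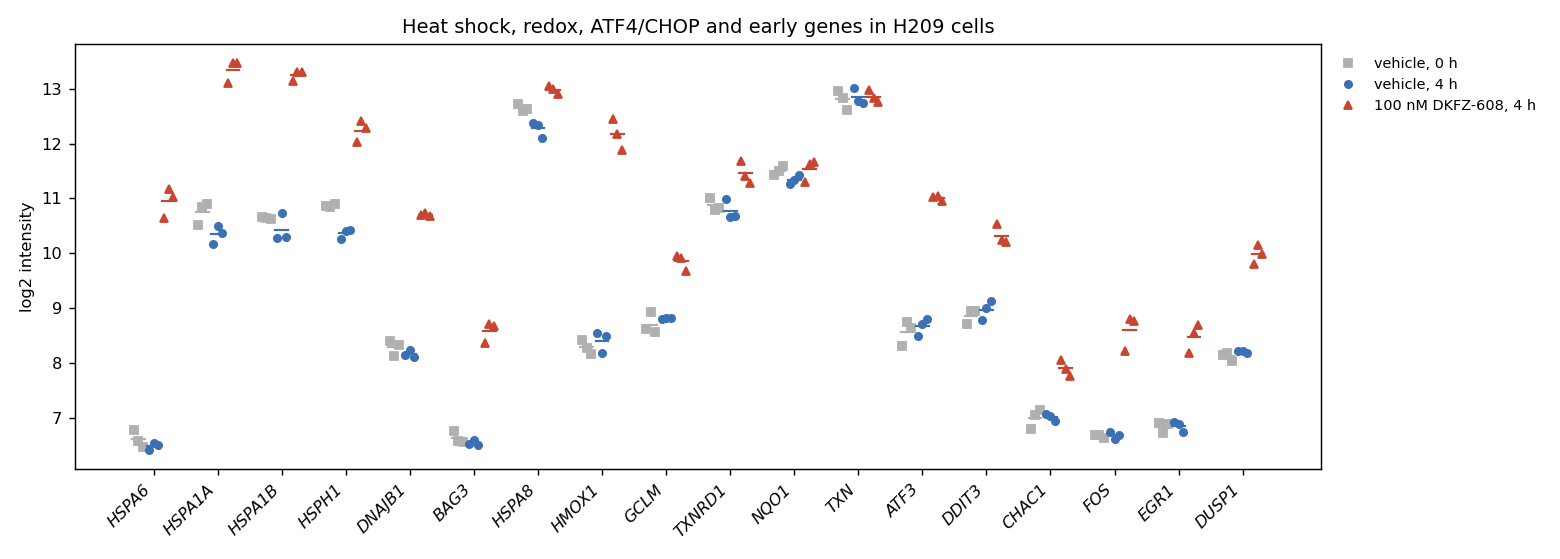
Log2 intensity (vertical axis) of 18 heat shock, redox, ATF4/CHOP and early genes in each H209 array; squares are vehicle at 0 h, circles vehicle at 4 h, triangles DKFZ-608 at 4 h (n = 3 each), and short lines are means. NQO1 and TXN overlap between groups, TXNRD1 is narrowly apart and HSPA6, HMOX1 and ATF3 are widely apart.

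Regulators of cell death moved in both directions. Of 24 BCL2 family genes and APAF1, 2 rose and 2 fell. PMAIP1 (NOXA), a BH3-only protein that binds MCL1, read 9.42, 9.72 and 9.58 in treated and 8.21, 8.23 and 8.30 in vehicle arrays, a 2.51-fold rise (log2 1.33 ± 0.08, limma adjusted p = 3.85e-05). MCL1, an anti-apoptotic member, rose by 0.83 ± 0.10, with 0.16 at a further probe. BCL2L1, which encodes BCL-XL, fell by 0.40 ± 0.07 (adjusted p = 0.0253), and APAF1, the core of the apoptosome, fell by 0.51 ± 0.08 (0.0257). Further probes of BCL2L1 and APAF1 gave -0.05 and 0.09. Both calls were lost without DKFZ-608 replicate 2 or 3 or vehicle replicate 1 or 2, with adjusted p up to 0.162 for BCL2L1 and 0.182 for APAF1. Among 22 arrest genes linked to p53 GADD45B rose by 1.03 ± 0.11, and the list median was -0.01.

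Of 17 secreted stress and angiogenic factors 4 rose and none fell (median 0.07): STC2 and INHBE, given above, VEGFA and GDF15. VEGFA, the angiogenic factor, rose by 1.03 ± 0.11 and GDF15, a stress cytokine, by 0.70 ± 0.12. The GDF15 call was lost without DKFZ-608 replicate 2 or 3 or vehicle replicate 1 or 2 (adjusted p up to 0.186). Outside the lists, ULBP1, a ligand of the NK cell receptor NKG2D, read 8.16, 8.37 and 8.28 against 7.15, 7.28 and 7.24 (log2 1.05 ± 0.08, limma adjusted p = 0.000104). Every treated ULBP1 array was above every vehicle array. Of 21 autophagosome genes 3 rose, SQSTM1, GABARAPL1 (0.65 ± 0.08) and MAP1LC3B (0.56 ± 0.09). The MAP1LC3B call was lost without DKFZ-608 replicate 2 or 3 or vehicle replicate 1 or 2 (adjusted p up to 0.128). ZFAND2A, an arsenite-inducible protein linked to the proteasome, rose by 1.16 ± 0.11, whereas 0 of 30 ubiquitin and proteasome genes passed (limma; 3 rose with the block).

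Also outside the lists, DEDD2, a death-effector domain protein, read 11.16, 11.38 and 11.27 against 9.69, 9.70 and 9.71, a 2.97-fold rise (log2 1.57 ± 0.07, limma adjusted p = 3.24e-06). TUBB3, the neuronal class of beta-tubulin, read 12.35, 12.51 and 12.29 against 11.41, 11.17 and 11.15, a 2.20-fold rise (1.14 ± 0.09, limma adjusted p = 0.000209). Neither gene's groups overlapped. CENPBD1P rose by 1.39 ± 0.08, and TRIB1, a pseudokinase, by 1.19 ± 0.12.

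Falls were small and included lineage factors. CTDSP1, a small phosphatase of the RNA polymerase II tail that also acts with REST, read 7.12, 7.10 and 7.01 in treated and 7.74, 8.06 and 7.88 in vehicle arrays. Treated arrays were close together below all vehicle arrays, and it fell by 0.81 ± 0.09 on the log2 scale (limma adjusted p = 0.00173). Its further probe, near the dim level, gave 0.05. LFNG, a glycosyltransferase that modifies Notch receptors, fell by 0.77 ± 0.08 (0.00114), with -0.13 and -0.03 at further probes. HEY1, a Notch target, rose by 1.10 ± 0.13, with 0.38 at a further probe. Of 24 tested Notch pathway genes 1 rose and 1 fell, with a median of 0.00. NPTX1, a synaptic pentraxin, fell by 0.74 ± 0.08 (0.00116), with -0.03 and -0.04 at further probes. With all probes averaged, LFNG gave -0.31 (adjusted p = 0.0646) and NPTX1 -0.27 (0.0854), neither past the test.

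Of 24 neuroendocrine and lung lineage factors 3 fell and none rose, with a median of -0.12, and 5 fell with the block. Every treated array lay below every vehicle array in 10 of them, beside 7.65% of all genes. ISL1, a homeobox factor of neuroendocrine cells, read 11.62, 11.56 and 11.62 against 12.27, 12.30 and 12.21, and fell by 0.66 ± 0.06 (limma adjusted p = 0.000748). The ISL1 groups were tight and apart. FOXA2, a forkhead factor of endoderm, fell by 0.52 ± 0.08 (0.0162), and NKX2-1, the lung and thyroid lineage factor, fell by 0.55 ± 0.09 (0.0316). FOXA2 missed the test without DKFZ-608 replicate 2 (adjusted p = 0.129), vehicle replicate 1 (0.0713) or vehicle replicate 2 (0.123). NKX2-1 missed it without DKFZ-608 replicate 2 (0.206), DKFZ-608 replicate 3 (0.0715), vehicle replicate 1 (0.157) or vehicle replicate 2 (0.19). Of 20 neuroendocrine peptide, granin and vesicle genes 0 passed (limma; 1 rose with the block), with a median of 0.01.

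Other fallen genes included HPS6, which acts in forming lysosome-related organelles (fell by 0.68 ± 0.07). PHACTR3 fell by 0.66 ± 0.08 and PRR15L fell by 0.57 ± 0.07. Each of these passed the test without any single array. After background subtraction only 2 of the 25 falls passed, CTDSP1 (-1.27, adjusted p = 0.00911) and PHACTR3 (-0.92, 0.035), with HPS6 at 0.0747, ISL1 at 0.0878 and PRR15L at 0.17. CENPA, the centromeric histone, fell by 0.42 ± 0.07 and was the single call among 30 mitosis genes, whose median was -0.11. With the replicate block 3 of these fell. The CENPA call was lost without DKFZ-608 replicate 2 (adjusted p = 0.139), DKFZ-608 replicate 3 (0.0552), vehicle replicate 1 (0.109) or vehicle replicate 2 (0.143).

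No gene passed (limma) among 30 replication genes, 16 core histones, 20 cholesterol and fatty acid synthesis genes, 27 ribosome biogenesis genes, 37 cytosolic ribosomal proteins, 33 oxidative phosphorylation subunits, 20 NF-kB and inflammatory genes, 19 interferon genes and 28 hypoxia and glycolysis genes. The medians of these lists lay between -0.08 and 0.05. With the replicate block from 0 to 4 genes of each passed in either direction.

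**Figure D3:**
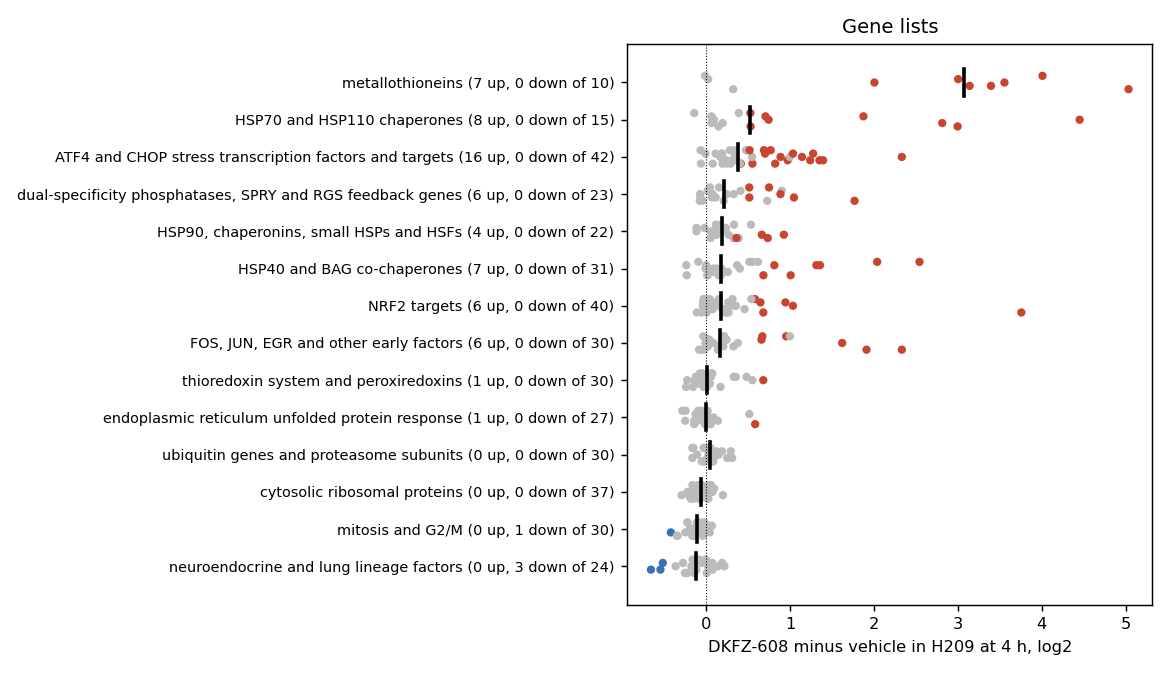
Log2 difference between DKFZ-608 and vehicle in H209 at 4 h (horizontal axis) for the tested genes of 14 lists; points past the test are red (higher) or blue (lower), black bars are list medians and the dotted line is the median of all genes. Metallothioneins have a median of 3.07, and the thioredoxin list has a median of 0.00 with TXNRD1 as its single call.

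Probes beyond those chosen gave further readings. Of the 143 genes, 41 had 50 other kept probes. Of these, 43 differed in the same direction, 27 of them at an unadjusted p under 0.05. In 8 of the risen genes the vehicle mean was within 0.25 of the table's median or lower, so their folds are approximate. After background subtraction MT1M differed by 6.65, HSPA6 by 6.16, HSPA7 by 4.28, BAG3 by 3.41, SPRY4 by 1.42 and CHAC1 by 1.41 on the log2 scale. Among 15982 kept probes with no single gene symbol, 36 passed (0.225%), 30 of them higher.

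H838, treated and sampled in the same way, gave a much smaller response at 4 h. There 2 of 18555 genes passed, both higher (0.0108%), and 503 had an unadjusted p under 0.05. MT1M read 8.42, 8.89 and 8.22 in treated and 7.50, 7.20 and 7.40 in vehicle arrays of H838 (log2 1.14 ± 0.14, limma adjusted p = 0.0108). MT1F read 10.83, 10.94 and 10.56 against 9.86, 9.89 and 9.70 (log2 0.96 ± 0.10, limma adjusted p = 0.00276). In both genes the H838 groups did not overlap. HMOX1 read 8.23 to 8.58 in treated and 8.02 to 8.43 in vehicle H838 arrays, and TXNRD1 10.78 to 10.90 and 10.67 to 11.03, overlapping in each case.

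The effect itself differed between the lines in 98 genes by a limma test of the H209 effect minus the H838 effect, above 0 in 86 (0.463%) and below 0 in 12 (0.0647%). Of the 118 genes that rose in H209, 83 passed this test, as did 10 of the 25 that fell. The median H838 effect over the 118 genes was -0.02. All 7 risen metallothioneins were among the 83. MT1M differed by 3.89 ± 0.19 (adjusted p = 4.58e-09), MT1F by 1.04 (0.00029) and HSPA6 by 4.38 ± 0.16 (1.90e-10). HMOX1 differed by 3.56 ± 0.20 (1.73e-08), with close vehicle levels in both lines. For TXNRD1 the difference of 0.70 did not pass (adjusted p = 0.0756). Other risen genes started apart. Vehicle means in H838 and H209 were 9.74 and 6.55 for BAG3, 11.79 and 9.96 for MT2A, and 8.32 and 10.5 for DDIT4. Whether the starting level bears on the line difference was not tested. CTDSP1 (-0.82 ± 0.13), LFNG (-0.75 ± 0.12), FOXA2 (-0.63 ± 0.10) and ISL1 (-0.55 ± 0.10) passed below 0. In H838 vehicle arrays ISL1 (mean 6.50), FOXA2 (6.41) and PHACTR3 (6.37) were at the dim level and LFNG (6.84) close to it, so a fall there could not be seen in that line. MUC1, an epithelial mucin not called in either line alone without the block, was 9.06 to 9.45 in treated and 9.56 to 9.77 in vehicle H209 arrays, and 10.25 to 10.43 against 9.87 to 10.07 in H838 (difference of effects -0.79 ± 0.14, adjusted p = 0.0071).

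**Figure D4:**
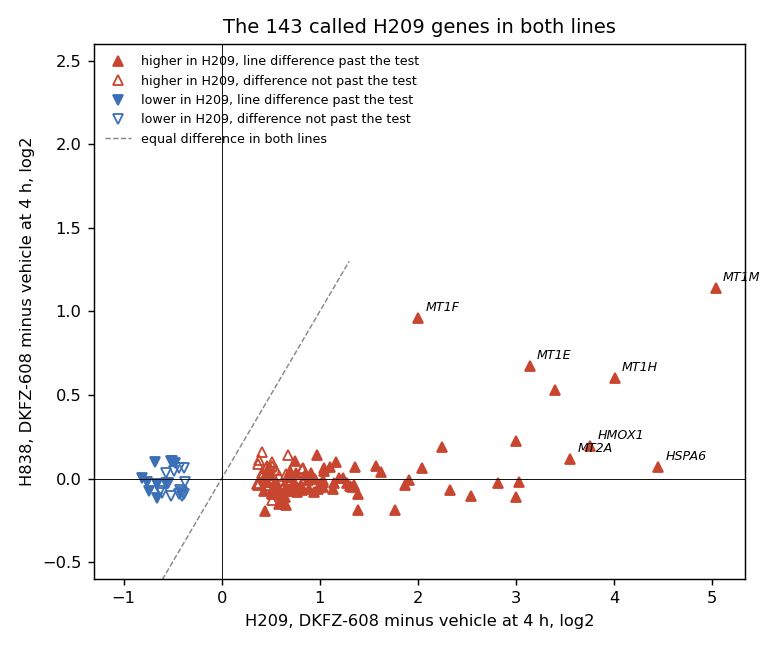
The 143 genes called in H209 at 4 h, with the H209 difference (log2, horizontal axis) against the H838 difference (log2, vertical axis); filled symbols passed the test of the line difference and the dashed line marks equal differences. Apart from the metallothioneins, among them MT1M (5.03 and 1.14) and MT1F (2.00 and 0.96), points lie between -0.19 and 0.20 on the vertical axis.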

How the data were processed

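RNA of H209 and H838 cells was extracted with a column kit, amplified to biotin-labelled cRNA and hybridised to Illumina arrays, per the labels' protocols. The deposited table holds probe intensity on a linear scale; the authors' summary and normalization are not given in the sources used here, and detection calls were not used. Of 48107 probes, 20 with empty cells were left out. Intensities below 75.8 (percentile 1) were set to it before the log2 step. A probe was kept if it exceeded the median of the table (log2 6.55) in at least 2 of 39 arrays. Genes were named from GEO's platform annotation (30113 probes with 1 symbol, 8 with several and 17986 with none), and each gene is its kept probe with the highest mean, which gives 18555 genes. No background was subtracted to 0, so folds of dim probes are understated.

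limma 3.58.1 in R 4.3.3 was fitted to the 6 H209 arrays at 4 h (4 residual and 5.35 prior degrees of freedom), with two-sided p-values adjusted over all genes by Benjamini-Hochberg and a threshold of 0.05. H838 was fitted on its own 6 arrays and the line difference on all 12. Deviations from group means correlated between same-number arrays with r of 0.48, 0.14 and 0.551, so the numbers may mark pairs. The values reported come from the fit without a block unless the block is named. The fit with the replicate block had 2 residual and 14.7 prior degrees of freedom. Genes named by rule were 7 redox genes (GCLM, HMOX1, NQO1, SLC7A11, SRXN1, TXN and TXNRD1), the 25 largest rises and falls, called list members, all members of 5 lists, the 10 largest line differences each way, and list genes whose probes disagree; the text names a subset, and GATA2, HSF1, PRKAB2, TRIB1, TUBB3, ULBP1 and ZFAND2A were chosen for mention after their values were seen. The comparison, its members and its lists were chosen with earlier results of these data known. Promoters matched 98 of 118 risen and 16 of 25 fallen genes by symbol. The procedure was tested on simulated data.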

Additional observations from a re-analysis of the deposited data

Results flagged for a closer look

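The difference between the effects in H209 and H838 at 4 h passed its own test in 98 genes. On the log2 scale the largest differences with a larger H209 effect were HSPA6 at 4.38, MT1M at 3.89, HMOX1 at 3.56, MT2A at 3.44, MT1H at 3.41, HSPA1A at 3.11, HSPA7 at 3.05, MT1X at 2.87, HSPA1B at 2.84 and MT1G at 2.78. The largest in the other direction were CTDSP1 at -0.82, MUC1 at -0.79, HPS6 at -0.77, LFNG at -0.75, NPTX1 at -0.67, PHACTR3 at -0.63, FOXA2 at -0.63, APAF1 at -0.62, IMP3 at -0.57 and ISL1 at -0.55. MUC1 alone among these was not called in H209.

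Outside the gene tests, 36 probes with no single gene symbol passed in H209 at 4 h. The largest were ILMN_2136089, with mean log2 levels of 12.87 in treated and 8.42 in vehicle arrays (4.45 ± 0.09), and ILMN_1662640, with 12.58 and 8.37 (4.21 ± 0.14).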

How the results depend on the processing

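Every alternative kept the direction of each of the 143 calls. The count was 143 (118 up, 25 down) and 701 (381, 320) with the replicate block, 266 (200, 66) with the spread of the 12 arrays of both lines at 4 h, 68 (65, 3) after background subtraction and 358 (232, 126) with 0 h and 4 h vehicle arrays as controls. With 0 h vehicle arrays alone it was 167, with 40 falls in place of 25. Leaving out 1 array gave 80 to 230 calls, 72 to 181 up and 8 to 49 down. No floor, no filter, a filter on these 6 arrays, quantile normalization, a trended prior, averaged probes and another probe choice gave 136 to 150. The genes were not all the same. Of the 143 calls the trended prior kept 119 and averaged probes 124, with 17 and 18 of the 25 falls. The others of these settings kept 137 to 143. With the spread of all 39 arrays the count was 121, of which 85 were among the 143. In that setting 38 calls of the 103 named genes were lost. Among them were HSPA6 (limma adjusted p = 0.109), BAG3 (0.281) and GCLM (0.506), which rose over 2-fold, and GCLC (0.397) and TXNRD1 (0.51). The cause was not tested. The line difference of 98 genes became 183 with the replicate block, 51 after background subtraction and 76 to 141 without 1 array. In H838 2 genes became 3 with the replicate block and 1 to 3 without 1 array. Of 103 named genes, background subtraction lost 48 calls; SLC7A11 and SRXN1 gained one with the replicate block, as did MT1B, PRDX1, SESN2 and TXNDC9 outside those 103. Falls and rises under 2-fold depend most on 1 array, and 3 arrays a group limit them.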
